A study of Mus musculus with 6 samples.

Results

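The 9 genes described here encode the core of leukaemia inhibitory factor (LIF) signalling in mouse embryonic stem (ES) cells: the receptor subunits Lifr and Il6st, the Janus kinases Jak1, Jak2 and Tyk2, the transcription factor Stat3, and the regulators and targets Socs3, Pim1 and Pias1. They were chosen by name for this role, with earlier results of these data known, and each symbol matched exactly 1 of the 55401 gene rows in the count table. The study measured RNA labelled with 4-thiouridine (4sU), a uridine analogue that cells build into newly made RNA and that allows this RNA to be captured on beads. All 6 libraries came from ES cells labelled 129/Ola, grown with LIF in the medium. The treated group consisted of 3 libraries of ZFP207AID cells kept with indole-3-acetic acid (IAA) for 5 h, which directs the degron-tagged zinc finger protein ZFP207 to degradation and whose genotype label names that degradation. The control group consisted of 3 libraries titled as the same degron line at 0 h of IAA, although their genotype label reads WT. If those controls were untagged cells, the comparison would also be one between lines. No library with IAA but without the degron was analysed here, so the effects of IAA and of ZFP207 loss cannot be told apart. The labels do not say whether the line is a single clone or whether replicates were separate cultures, so p-values measure only the spread between these libraries. The data used here hold no measurement of the protein, so its loss was not checked here. The series asks about ZFP207 in the function of the U1 small nuclear ribonucleoprotein.

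LIF binds LIFR, which pairs with the shared subunit gp130, the product of Il6st. Kinases of the JAK family, bound to the receptor tails, then phosphorylate the receptor and STAT3, which enters the nucleus and activates genes that hold mouse ES cells in self-renewal. Socs3 is both a direct STAT3 target and a feedback inhibitor that blocks gp130 and the kinases, so its newly made RNA is a common readout of pathway activity.

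The libraries held 14336811 to 25916628 counts. Levels are given as CPM, counts put on a common library total with TMM normalisation factors, always in the order of replicates 1, 2 and 3, and the 9 genes together took 0.119% to 0.137% of the counts. The ES cell markers Pou5f1, Sox2, Nanog, Zfp42, Esrrb, Dppa5a, Tdgf1 and Utf1 had 1834 to 25458 counts each per library, with a summed level of 3847 to 4405 CPM in controls and 4247 to 4746 CPM after IAA. Of 8 fibroblast markers, which would show feeder cells, 4 had no count in any library and Thy1 alone passed the filter on low counts, at 2.27 to 8.25 CPM in controls and 2.50 to 4.20 CPM after IAA. Summed over the members of each list that passed the filter, markers of primitive endoderm stood at 4.61 to 8.94 CPM in controls and 9.13 to 10.7 CPM after IAA, mesoderm at 4.89 to 12.02 and 8.76 to 11.2 CPM, neural cells at 13.9 to 16.7 and 9.58 to 19.6 CPM, and trophoblast at 1.02 to 1.46 and 1.64 to 2.01 CPM. None of these markers of other cell types, Thy1 included, was called in the edgeR fits described below, without or with a replicate block. None of them had an unadjusted edgeR p under 0.05 in either, against 10.9% and 27.9% of all genes tested. Of the 8 ES cell markers, 0 were called without the block. With it, Utf1 alone was called, as higher (log2 fold change 0.40, edgeR adjusted p = 0.0126), against 4.96% of all genes tested. In that fit 3 of the 8 had an unadjusted edgeR p under 0.05, against 27.9% of all genes tested. Of the primitive endoderm markers tested, 5 had an unpaired log2 fold change above 0 and 1, Pdgfra, below it. Counts were low, with 0 to 26 per library for Gata6 and 0 to 20 for Hand1. The part of other cell types in the results below was not tested. A bulk measurement of this kind cannot tell fewer expressing cells from less RNA per cell.

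Sequences from the start-site regions of RefSeq (GRCm38.p6, the assembly that mm10 names) are shown for Stat3, Socs3 and Icam1. Of the 9 genes, Stat3 was the only one called, and only in fits with a replicate block, described below. Windows of Socs3, also one of the 9, and of the pathway gene Icam1 hold the letters of the STAT motif TTCNNNGAA. This motif is its own reverse complement, so one search covers both strands. Capitals mark the match, and each sequence reads 5′ to 3′ on the strand of its gene.
Stat3, chr11:100939595-100939790, minus strand, the bases upstream of the outermost annotated start: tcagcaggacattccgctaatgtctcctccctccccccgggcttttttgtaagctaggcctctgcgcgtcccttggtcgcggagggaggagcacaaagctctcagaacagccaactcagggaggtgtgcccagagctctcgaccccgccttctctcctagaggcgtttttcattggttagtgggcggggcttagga
Socs3, chr11:117969501-117969530, minus strand, match starting 154 bases upstream of the start site: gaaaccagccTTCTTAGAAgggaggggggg
Icam1, chr9:21015888-21015917, plus strand, match starting 42 bases upstream of the start site: ggcgcgaggtTTCCCGGAAagtggccccga
The Socs3 start site of this window lies inside the annotated gene interval, downstream of its outermost start, and so does the printed stretch. The search covered windows from 250 bases before to 50 bases after each start site. All 9 genes had a window, and 1 of their 11 windows, that of Socs3, held the motif (9.1%), against 2726 of 32851 windows of all genes (8.3%). Of the 52 other LIF pathway genes described below, 39 had a window, and 5 of their 54 windows held a match (9.3%). These shares were close to that of all windows, and a match describes letters only. Besides Icam1, the other pathway genes with a match were Cish, Gab1 and Zfp36, none of them called in the edgeR fits described below.

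All 9 genes passed the filter on low counts, with 121 to 11987 counts per library, and none was called after IAA in an edgeR quasi-likelihood fit without pairing of replicates. Called means a Benjamini-Hochberg adjusted p under 0.05 over the 17573 genes tested. This unpaired fit called 0.791% of all genes, 0.0114% as higher and 0.78% as lower, and 1 of the 9 genes had an unadjusted p under 0.05 in it, against 10.9% of all genes tested. DESeq2 without the block called 0 of the 9. Libraries of the same replicate number deviated together, so the same edgeR test was also run with the replicate number as a block. The fit with the block called 12.9% of all genes, 4.96% as higher and 7.9% as lower, and among the 9 it called Stat3 alone, as higher. Over the 9 genes, the log2 fold change had a median of 0.20 in the unpaired fit and 0.19 with the block, against 0.02 over all genes tested in both fits. Leaving out depleted replicate 3 brought the unpaired median to 0.01, control replicate 1 to 0.02, depleted replicate 2 to 0.05, control replicate 2 to 0.07 and depleted replicate 1 to 0.12. In direction, 5 genes were above 0 and 4 below.

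**Figure D1:**
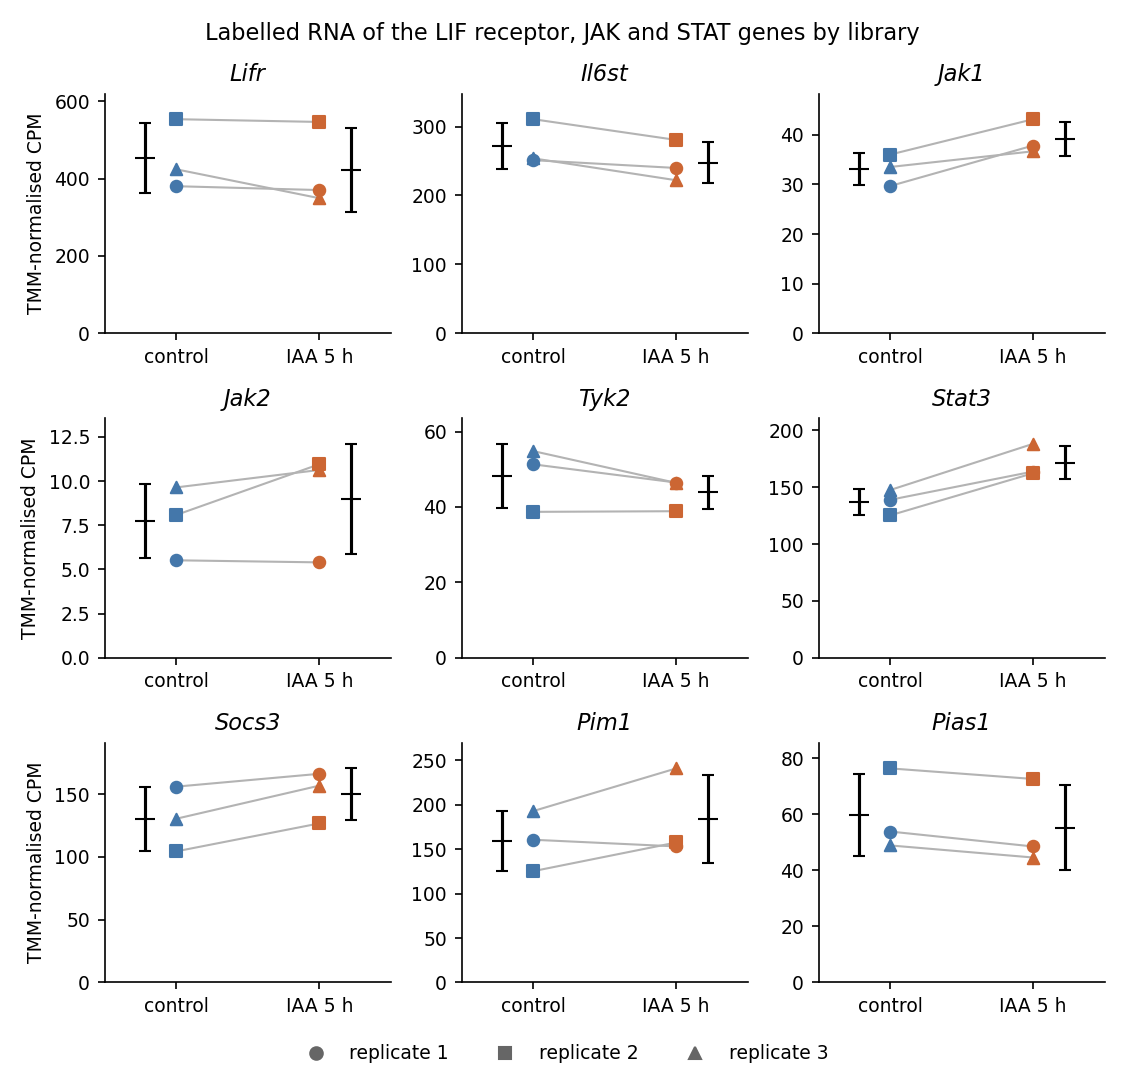
TMM-normalised CPM of the 9 genes in the 3 control and 3 IAA libraries, with lines joining libraries of the same replicate number and black bars giving the mean ± SD of each group. The groups are apart for Stat3 and Jak1, and for Lifr and Pias1 the replicate 2 libraries stand above the others in both groups.

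Stat3, which encodes the transcription factor that carries the LIF signal to the nucleus, was the only one of the 9 genes called, and only with the block. Its level was 139, 125 and 148 CPM in the controls and, after IAA, 164, 162 and 188 CPM. Every depleted library lay above every control, as was also true of 6.94% of all genes tested. The mean went from 137 ± 11.2 to 171 ± 14.5 CPM (SD, n = 3). The log2 fold change was 0.32 in both fits, with an SE of 0.14 in the unpaired fit (edgeR adjusted p = 0.447) and 0.08 with the block (edgeR adjusted p = 0.0178). With the block, Stat3 rose 1.25-fold, with a 95% interval of 1.11 to 1.40. Its log2 ratios within the pairs were 0.24, 0.37 and 0.35. The call was lost when any pair was left out, with edgeR adjusted p of 0.0511 without replicate 1, 0.0611 without replicate 2 and 0.103 without replicate 3, while the log2 fold change stayed between 0.29 and 0.36. DESeq2 with the block also called it (adjusted p = 0.00189), and DESeq2 without the block did not (adjusted p = 0.291). Stat3 spans chromosome 11 from 100886806 to 100939594, and Gm46295 overlaps it. Reads of overlapping genes cannot be told apart without a statement of strand.

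Socs3, the feedback inhibitor, was higher in the depleted library of all 3 pairs but was not called in either fit. Its level was 156, 104 and 130.4 CPM in the controls and, after IAA, 166, 127 and 157 CPM. The groups overlapped, because control replicate 1 lay close to depleted replicate 3 and above depleted replicate 2, and replicate 2 was the lowest of each group. Without the block edgeR gave a log2 fold change of 0.20 (SE 0.18, adjusted p = 0.762), and with the block one of 0.21 (SE 0.08, adjusted p = 0.110). The blocked 95% interval ran from 0.04 to 0.39 before adjustment. In that fit 27.9% of all genes tested had an unadjusted edgeR p under 0.05. Without control replicate 2 the unpaired value was 0.06, and the other single omissions gave 0.12 to 0.36. Socs3 lies on chromosome 11 from 117966079 to 117970336, and no annotated gene overlaps it.

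Pim1 encodes a serine/threonine kinase that is a STAT3 target. It stood at 160.5, 125 and 193 CPM in the controls and, after IAA, at 153, 157 and 241 CPM. Replicate 3 was the highest of each group, and replicate 1 was lower after IAA while the other pairs were higher. In edgeR, the fit without the block gave a log2 fold change of 0.20 (SE 0.22, adjusted p = 0.807), and with the block one of 0.19 (SE 0.09, adjusted p = 0.192). It changed sign, to -0.04, without depleted replicate 3. Pim1 lies on chromosome 17 from 29490785 to 29496111 and is overlapped by Gm26885.

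Both receptor subunit genes lay slightly lower after IAA in each of the 3 pairs, and neither was called in either fit. Of all genes tested, 24.1% were lower in all 3 pairs and 24.2% were higher in all 3. Among the 9 genes, Lifr, Il6st and Pias1 were lower in all pairs and Jak1, Stat3 and Socs3 higher, so the 3 of each kind are to be read against those shares. Lifr stood at 381, 554 and 424 CPM in the controls and, after IAA, at 371, 547 and 349.6 CPM. The replicate 2 libraries were the highest of their group and differed from each other by less than they did from the other replicates. Without the block edgeR gave for Lifr a log2 fold change of -0.10 (SE 0.21, adjusted p = 0.915), and with the block one of -0.11 (SE 0.07, adjusted p = 0.371). Leaving out control replicate 2 turned the unpaired value to 0.07, and leaving out depleted replicate 3 turned it to 0.01. In the blocked fits that left out pair 1, 2 or 3 it was -0.15, -0.16 and -0.04. With the block the 95% interval ran from -0.27 to 0.05. Lifr spans chromosome 15 from 7090610 to 7197489.

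Il6st encodes gp130, the signalling subunit shared by the receptors of the interleukin 6 family. It stood at 251, 311 and 254 CPM in the controls and, after IAA, at 239.9, 281 and 222 CPM. Replicate 2 was again the highest of each group. The log2 fold change was -0.14 in both fits, with an SE of 0.15 in the unpaired fit (edgeR adjusted p = 0.811) and 0.07 with the block (edgeR adjusted p = 0.245). The blocked 95% interval ran from -0.29 to 0.02. Il6st lies on chromosome 13 from 112464070 to 112506860.

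Of the kinases, Jak1 is the main kinase of gp130 signalling, and Jak2 and Tyk2 can also bind the receptor. Jak1 stood at 29.7, 36.0 and 33.5 CPM in the controls and, after IAA, at 37.9, 43.2 and 36.7 CPM. Its groups did not overlap, by a margin under 1 CPM between control replicate 2 and depleted replicate 3. Of the 9 genes, 2 had groups that did not overlap, Jak1 and Stat3, against 18.8% of all genes tested. The Jak1 log2 fold change was 0.25 in both fits, with an SE of 0.17 in the unpaired fit (edgeR adjusted p = 0.668) and 0.12 with the block (edgeR adjusted p = 0.218). Raver2 and the gene models Gm24468, Gm19063 and Gm52754 overlap its interval on chromosome 4, 101151974 to 101265282.

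Jak2 had the fewest counts of the 9 genes, between 121 and 240 per library. It stood at 5.52, 8.08 and 9.64 CPM in the controls and, after IAA, at 5.40, 10.95 and 10.6 CPM, with replicate 1 lowest in each group. In edgeR, the fit without the block gave a log2 fold change of 0.22 (SE 0.36, adjusted p = 0.888), and with the block one of 0.19 (SE 0.23, adjusted p = 0.671). The blocked 95% interval of -0.32 to 0.69 was the widest among the 9 genes, so a change of the size seen for Stat3 was not detectable here. Jak2 lies on chromosome 19 from 29251803 to 29313095. Tyk2 stood at 51.3, 38.7 and 54.8 CPM in the controls and, after IAA, at 46.5, 38.9 and 46.4 CPM. Its replicate 2 libraries were the lowest of each group and nearly equal. Without the block edgeR gave for Tyk2 a log2 fold change of -0.14 (SE 0.19, adjusted p = 0.849), and with the block one of -0.13 (SE 0.11, adjusted p = 0.527). Tyk2 lies on chromosome 9 from 21104068 to 21131393.

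Pias1 encodes a SUMO ligase that binds activated STAT proteins and limits their action on DNA. It stood at 53.8, 76.3 and 48.9 CPM in the controls and, after IAA, at 48.5, 72.5 and 44.5 CPM. The replicate 2 libraries were the highest of each group, and each depleted library lay below its control. In edgeR, the fit without the block gave a log2 fold change of -0.11 (SE 0.24, adjusted p = 0.918), and with the block one of -0.12 (SE 0.10, adjusted p = 0.499). It turned to 0.11 when control replicate 2 was left out and to 0.01 when depleted replicate 3 was, and in the blocked fits without pair 1, 2 or 3 it was -0.10, -0.14 and -0.13. Pias1 spans chromosome 9 from 62878366 to 62980879, overlapped by Gm35574.

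**Figure D2:**
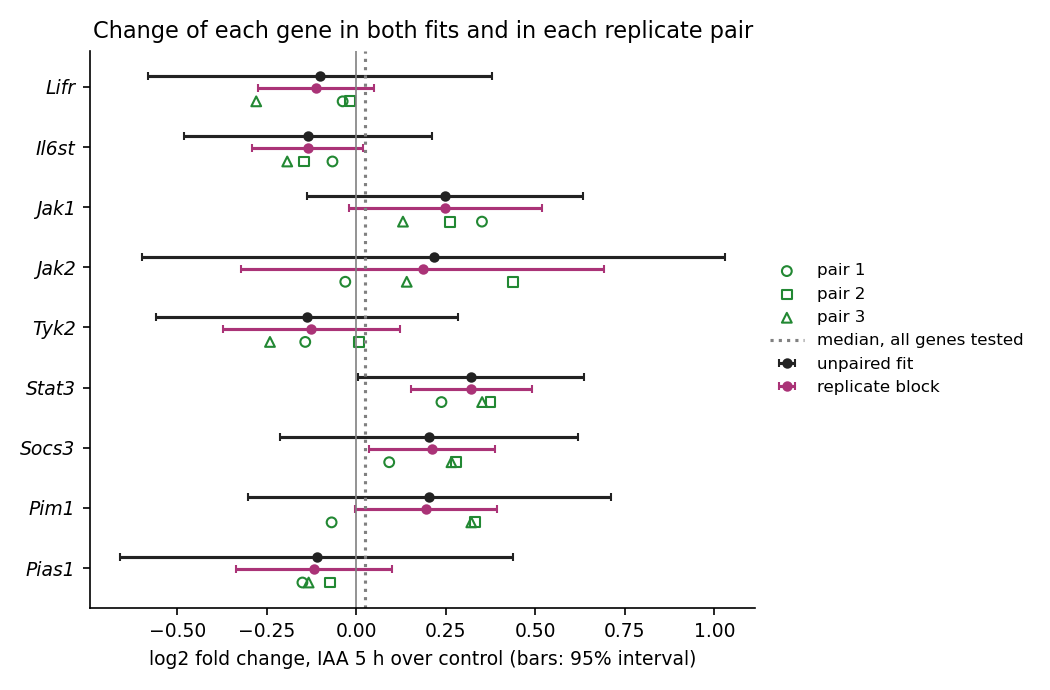
Log2 fold change of each of the 9 genes (IAA for 5 h over control) in the unpaired edgeR fit and in the fit with the replicate block, with 95% intervals before adjustment, and the log2 CPM ratio within each replicate pair as open green symbols. The block narrows every interval, and the blocked intervals of Stat3 and Socs3 lie above 0. With the block, 2 of the 9 genes and 27.9% of all genes tested had an unadjusted edgeR p under 0.05.

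The spread between replicate numbers exceeded the change after IAA for several of the 9 genes. In log2 CPM around its mean over the 6 libraries, Lifr stood at 0.36 in control replicate 2 and 0.35 in depleted replicate 2, and between -0.30 and -0.02 in the other 4 libraries. Pias1 stood at 0.44 and 0.37 in the replicate 2 libraries and between -0.33 and -0.06 in the others. Socs3 went the other way, at -0.41 and -0.13 in control and depleted replicate 2 and between -0.09 and 0.26 in the others. Stat3 differed in that all controls lay below 0 and all depleted libraries above it.

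**Figure D3:**
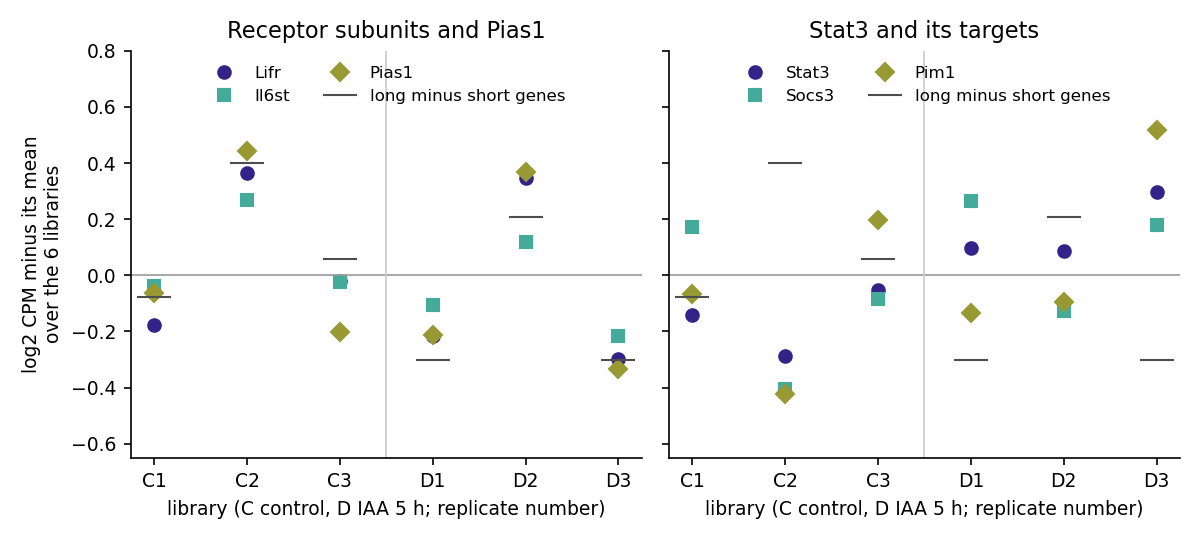
Log2 CPM minus its mean over the 6 libraries for Lifr, Il6st and Pias1 (left) and for Stat3, Socs3 and Pim1 (right), with horizontal dashes for the median of genes of 100 kb or more minus that of genes under 10 kb. Lifr, Il6st and Pias1 are high in both replicate 2 libraries, where the dashes are also highest, whereas Stat3 is below 0 in all controls and above 0 in all depleted libraries.

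The difference between long and short genes moved with the pattern of Lifr and Pias1. The median of genes of at least 100 kb minus that of genes under 10 kb, on the same centred log2 scale, was -0.08, 0.40 and 0.06 in the controls and, after IAA, -0.30, 0.21 and -0.30. Lifr spans 107 kb, Pias1 103 kb and Jak1 113 kb, whereas Socs3 spans 4.26 kb and Pim1 5.33 kb. Jak1 differed from Lifr and Pias1, at 0.004 in control replicate 2, 0.26 in depleted replicate 2, and 0.08 and 0.03 in depleted replicates 1 and 3. The part of length in the levels of these genes was not tested. After IAA, the 1738 tested genes of at least 100 kb had a median log2 fold change of -0.12. Lifr and Pias1 lay within 0.02 of that median, and Jak1, at 0.25, stood above it. The 3865 genes of 30 to 100 kb had a median of -0.07. In that class Stat3 (52.8 kb) was above the median by more than 0.3, Jak2 (61.3 kb) also lay above it, and Il6st (42.8 kb) lay below it. Socs3 and Pim1 lay above the median of 0.14 of the 5040 genes under 10 kb, by less than 0.1, and Tyk2 (27.3 kb) lay below that of the 4650 genes of 10 to 30 kb, which was 0.04.

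**Figure D4:**
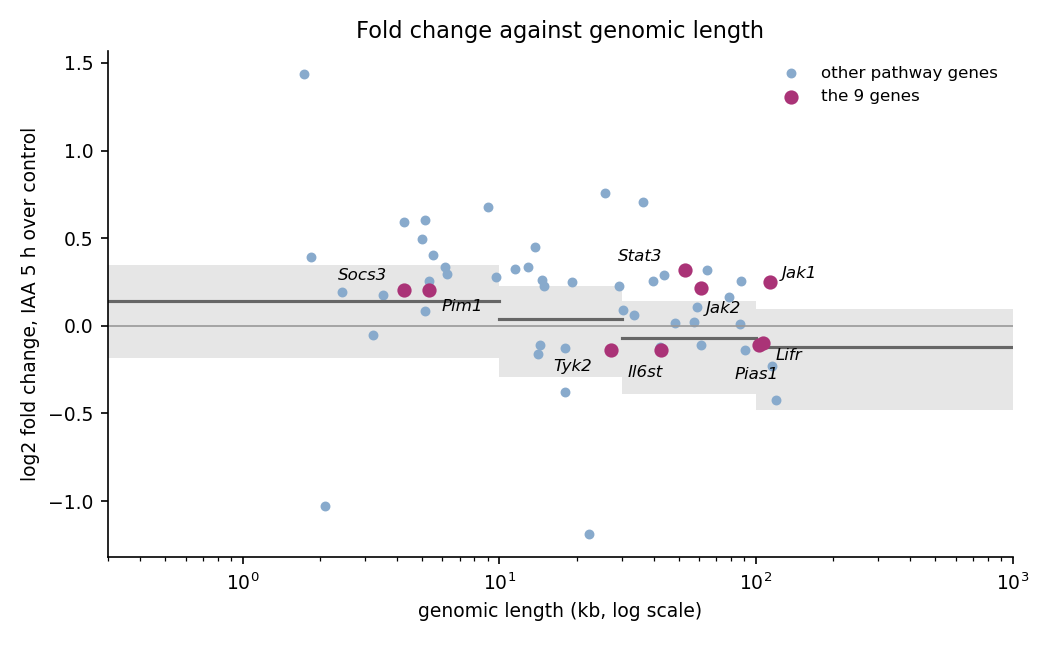
Unpaired log2 fold change (IAA for 5 h over control) against genomic length on a log axis for the 9 genes and the other LIF pathway genes tested, with dark lines for the median and grey bands for the interquartile range of all tested genes in 4 length classes. Lifr and Pias1 lie on the line of their class at -0.12, and Stat3, Jak1 and Jak2 lie above the bands of theirs.

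Set beside the 9 genes, 52 other genes of LIF and JAK-STAT signalling were listed by role, and 46 passed the filter. The unpaired edgeR fit called 1 of these 46, as lower, and 4 had an unadjusted p under 0.05, against 10.9% of all genes tested. With the block, 7 were called higher and 1 lower, against 4.96% and 7.9% of all genes tested. The median log2 fold change of the 46 was 0.23 in the unpaired fit and 0.22 with the block, against 0.02 over all genes tested in both. Of these 8 genes, Stat2 and Socs7 were called in the block fit whichever pair was left out. The other 6 each lost the call in at least 1 such omission.

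Stat2, which encodes a transcription factor of the response to type I interferon, changed more than any of the 9 genes. It stood at 42.2, 52.2 and 57.8 CPM in the controls and, after IAA, at 21.2, 25.5 and 19.97 CPM, so that every depleted library lay below every control, as was also true of 11.8% of all genes tested. It fell 2.28-fold, from 50.7 ± 7.87 to 22.2 ± 2.91 CPM (SD, n = 3). Without the block edgeR gave a log2 fold change of -1.19 (SE 0.19, adjusted p = 0.0379), and with the block one of -1.18 (SE 0.14, adjusted p = 2.26e-04). The unpaired call was lost whichever library was left out, with edgeR adjusted p of 0.0572 without depleted replicate 2, 0.120 and 0.124 without control replicates 2 and 1, 0.162 and 0.163 without depleted replicates 1 and 3 and 0.185 without control replicate 3, while the log2 fold change stayed between -1.31 and -1.10. Stat2 lies on chromosome 10 from 128270498 to 128292853, and Apof overlaps it. Of the other STAT genes, Stat6 had a blocked log2 fold change of -0.37 (edgeR adjusted p = 0.0639) and Stat4 one of -0.52 (edgeR adjusted p = 0.326), while Stat5a stood at 0.76 (edgeR adjusted p = 0.223) from a level of 2.35 CPM in controls. Jak3, at 72.8 CPM in controls and 65.2 CPM after IAA, was not called (edgeR adjusted p = 0.299 with the block).

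Among the inhibitors, Socs7, a member of the same SOCS family as Socs3, was the only gene called. It went from 71.8, 79.1 and 71.4 CPM in the controls to 109, 126 and 128 CPM after IAA. Every depleted library lay above every control, as was also true of 6.94% of all genes tested. Socs7 rose 1.63-fold with the block (log2 fold change 0.70, SE 0.09, edgeR adjusted p = 3.43e-04), while the unpaired fit missed the threshold (edgeR adjusted p = 0.0689). DESeq2 without the block called it (adjusted p = 3.68e-04). It lies on chromosome 11 from 97362292 to 97398542. Of the 14 genes for SOCS and PIAS proteins and phosphatases, 1 was higher and 0 lower with the block, against 4.96% and 7.9% of all genes tested. In the unpaired fit 11 of the 14 had a log2 fold change above 0 and 3 below it, against 9182 above 0 of all 17573 genes tested. With the block, 6 had an unadjusted edgeR p under 0.05, against 27.9% of all genes tested. Socs1, at 1.05 CPM in controls, had a blocked log2 fold change of 1.38 (edgeR adjusted p = 0.102), and Pias4 one of 0.47 (edgeR adjusted p = 0.0568). The tyrosine phosphatase genes Ptpn11 and Ptpn2 had blocked log2 fold changes of -0.11 and 0.10 and were not called (edgeR adjusted p = 0.444 and 0.529).

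Of 5 adaptor genes, Grb2 and Shc1 were called higher with the block and 0 lower, against 4.96% and 7.9% of all genes tested. In the unpaired fit 4 of the 5 had a log2 fold change above 0 and 1, Gab1, below it. Gab1, at 640 CPM in controls and 545 CPM after IAA, had a blocked log2 fold change of -0.24 (edgeR adjusted p = 0.0543). The genes Grb2 and Shc1 encode the adaptors named next. Grb2 and Shc1 link activated receptors to RAS. Grb2 went from 85.4 ± 7.38 to 106 ± 10.9 CPM, a 1.25-fold rise (edgeR adjusted p = 0.0300 with the block and 0.492 without), and Shc1 from 79.7 ± 9.79 to 99.8 ± 1.89 CPM, a 1.26-fold rise (edgeR adjusted p = 0.0427 with the block and 0.477 without). Grb2 was not called in any blocked fit that left out a pair (edgeR adjusted p from 0.0552 to 0.185), nor was Shc1 (0.0724 to 0.220).

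Of 13 known or proposed STAT3 targets in ES cells, 4 rose with the block and none fell, against 4.96% and 7.9% of all genes tested. None of the 13 was called in the unpaired edgeR fit, where 1 had an unadjusted p under 0.05 (10.9% of all genes tested did), or by DESeq2 without the block. Myc, a growth regulator, rose 1.41-fold with the block (edgeR adjusted p = 0.00782), from 71.4, 52.7 and 70.3 CPM in the controls to 113, 77.2 and 84.1 CPM. Mcl1, a survival gene of the BCL2 family, went from 767 ± 90.0 to 942 ± 85.1 CPM (blocked edgeR adjusted p = 0.0257). The adhesion molecule gene Icam1 went from 128 ± 22.7 to 161 ± 19.6 CPM (blocked edgeR adjusted p = 0.0161), and the naive pluripotency factor gene Klf4 from 186 ± 15.0 to 222 ± 29.3 CPM (blocked edgeR adjusted p = 0.0468). Myc lost the call without pair 1, Mcl1 without pairs 1 and 2, Icam1 without pairs 2 and 3 and Klf4 whichever pair was left out. Tfcp2l1 and Gbx2, naive pluripotency genes that also respond to LIF, had blocked log2 fold changes of 0.01 and -0.04 (edgeR adjusted p = 0.938 and 0.855). Of the 13 targets, 11 had an unpaired log2 fold change above 0 and 2 below it, against 9182 above 0 of all 17573 genes tested. Their median with the block was 0.25, against 0.02 over all genes tested. In that fit the median was 0.14 for genes under 10 kb, such as Myc, Mcl1 and Klf4. It was 0.04 for genes of 10 to 30 kb, such as Icam1. The part of length in the values of the targets was not tested. With the block, 7 of the 13 targets had an unadjusted edgeR p under 0.05, against 27.9% of all genes tested. Myc and Klf4 were known to be called in these data when the list was written.

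**Figure D5:**
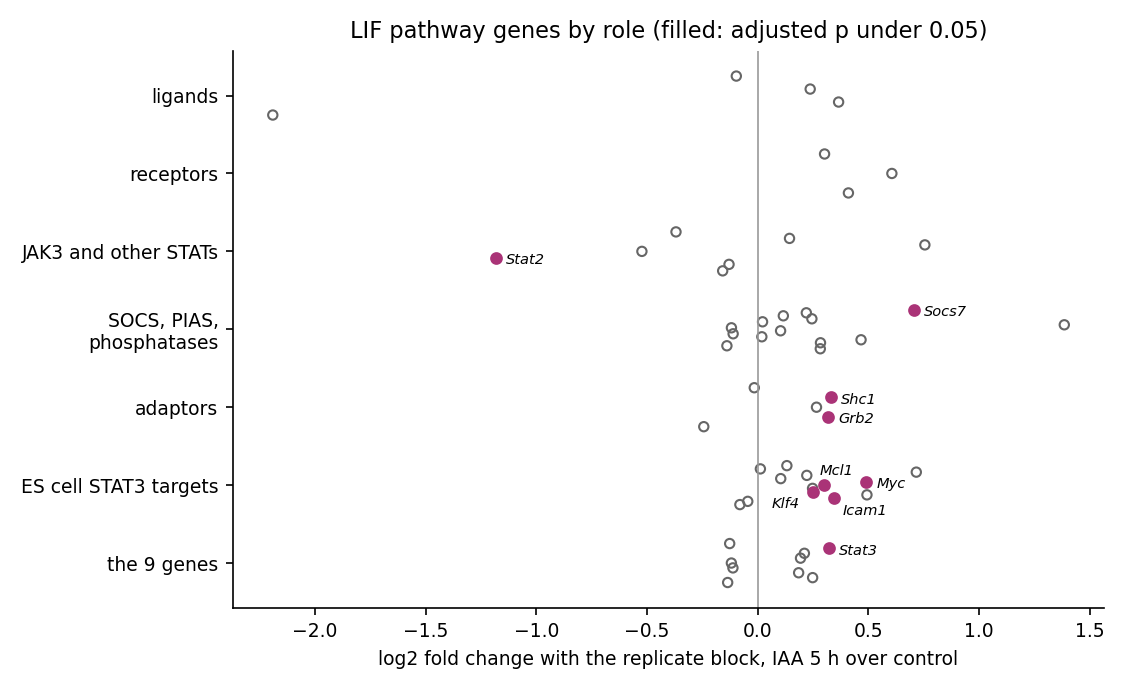
Log2 fold change with the replicate block (IAA for 5 h over control) for the tested LIF pathway genes, 1 point per gene in rows by role, with filled points for an adjusted p under 0.05. Stat2 is the only filled point below 0, at -1.18, and Socs7 is the farthest filled point above it, at 0.70.

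Ligand and co-receptor genes were low. Of 9 ligand genes 4 passed the filter, and of 4 further receptor genes 3 did, and none of these 7 was called in either fit. In the unpaired edgeR fit none of them had an unadjusted p under 0.05, and the same was true with the block, against 10.9% and 27.9% of all genes tested. Lif itself stood at 16.6 CPM in controls and 19.5 CPM after IAA (blocked edgeR adjusted p = 0.422), and Il6 had no count in any library.

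Likeness of pattern was measured as the root mean square difference in centred log2 CPM over the 6 libraries, within the 46 pathway genes tested. The genes most like Lifr were Pias2 (0.103), Sos1 (0.109) and Tfcp2l1 (0.142), against a median of 0.477 over the 46. Those most like Stat3 were Shc1 (0.104), Icam1 (0.104) and Grb2 (0.105), against a median of 0.334. Those most like Socs3 were Pias3 (0.0667), Grb2 (0.114) and Lif (0.136), against a median of 0.343. Among the 9 genes, Lifr and Pias1 were the closest pair (0.0945), followed by Lifr and Il6st (0.128), and Stat3 was closest to Socs3 (0.182). These values share libraries and scaling, so they describe the 6 libraries only.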

How the data were processed

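The authors deposited 1 table of estimated counts per gene for 6 libraries of 4sU-labelled RNA, given as whole numbers and used as such. The submitters' processing notes name the build mm10 and the tools StringTie 2.2.1, HISAT2 2.2.1 and DESeq2 1.42.0 without their roles. For strand, annotation and 4sU pulse, nothing is given in the sources used here. Each column was matched to a sample by title. The 9 genes and the pathway and marker lists were chosen with earlier results of these data known.

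Counts were fitted in R 4.3.3 with edgeR 4.0.16 (filterByExpr by group, TMM, robust quasi-likelihood F test, Benjamini-Hochberg over 17573 genes, threshold 0.05), depleted over control. The standard error is the fold change over the root of F. Replicate numbers were taken to pair libraries because, across genes, deviations from the group means correlated at 0.268, 0.387 and 0.321 within numbers and at -0.265 to -0.025 between numbers. Deviations cancel out within a group, so positive values within numbers bring negative ones between numbers, which add no separate support. The fits were also run on simulated counts that assumed an effect shared by libraries of the same replicate number, with changes larger than those of the 9 genes. That run thus tested neither the pairing nor changes of the size seen here. Alternatives were other scalings, no filter, DESeq2 1.42.0, the block, and omission of each library or pair. Coordinates and lengths came from RefSeq by symbol. Genes named are the 9, pathway genes called in either fit, and the 3 most like Lifr, Stat3 and Socs3; all further genes given as examples were chosen after their values were seen.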

Additional observations from a re-analysis of the deposited data

How the results depend on the processing

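No change of scaling or filter altered a call or a direction among the 9 genes, where DESeq2 size factors, upper quartile scaling and no filter were tried in edgeR, and the DESeq2 test without the block altered none either. The replicate block changed the call of Stat3 alone among the 9. Over all genes, 139 were called in the unpaired edgeR fit, 2259 with the replicate block (1418, 1428 and 949 without pairs 1, 2 and 3), 641 by DESeq2, 2538 by DESeq2 with the block, an alternative added after seeing the data, and 0 to 1 when a single library was left out of the unpaired fit. The numbers of the 9 genes called were 0 in the unpaired fit, 1 with the replicate block, 1 by DESeq2 with the block and 0 in every blocked fit without a pair. Of the other pathway genes, 1 was called in the unpaired fit, 8 with the replicate block (5, 3 and 4 without pairs 1, 2 and 3), 2 by DESeq2, 12 by DESeq2 with the block and 0 when any single library was left out. The median of the 9 genes ranged from 0.0069 to 0.20 with a library left out, and from 0.06 to 0.20 in the blocked fits without a pair. With a library left out, the log2 fold change ran from -0.33 to 0.070 for Lifr and from -0.36 to 0.11 for Pias1, above 0 without control replicate 2 (0.070 and 0.11) and without depleted replicate 3 (0.0055 and 0.0069). For Pim1 it ran from -0.043, without depleted replicate 3, to 0.36. With 3 libraries a group, an exact permutation test of a single gene cannot go below p = 0.1, and depth limits Jak2 most, with at most 240 counts in a library.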
